A study of Mus musculus with 5 samples.

Results

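The cytosolic ribosomal protein genes encode the protein part of the ribosome that translates nuclear messages. They were taken from the deposited gene table by name: Rpl or Rps followed by a number and at most a short letter or digit, together with Rpsa, Rplp0, Rplp1 and Rplp2, and without names that mark a pseudogene copy or a ribosomal S6 kinase. The rule found 83 of the 19221 genes in the table, 48 named for the large subunit and 35 for the small subunit. The annotation lists 77 of them as protein coding and 6 as processed pseudogenes (Rps3a2, Rps3a3, Rpl32l on chromosome 10, Rps4l, Rpl6l and Rps12l1, of which the last 2 are named here only to complete the count). Some genes of the same complex carry another name in the table and lie outside the rule: Rps6, Rpl23, Rpl27, Rpl34, Rpl37, Fau and Rack1 are described apart. A second row listed as Rpl32l has the identifier of Rpl32 and is called Rpl32 here.

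RNA came from the caudate putamen of C57BL/6 mice, males of 9 weeks, in which a small clot-induced lesion had been made by photothrombosis, where laser light activates the dye rose bengal inside blood vessels. The 4 stroke libraries hold punched lesion tissue of 6 animals each, pooled 4 h, 1 day, 3 days and 10 days after the injury. The sham library mixes punches from the left, contralateral side of the mice, where laser light came before the dye; how many mice it holds is not stated. All animals therefore carried rose bengal (100 mg/kg, into the abdomen), a fibre track to 3 mm below the dura and light of 532 nm at 30 mW for 2 min, and sham tissue comes from brains with a lesion on the other side. Each group is 1 library, so no difference below has a replicate check, no p-value, standard deviation over samples or test was computed, and every value describes these libraries.

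A ribosome holds a small subunit, which binds messenger RNA and reads codons, and a large subunit, which joins amino acids, and nearly every ribosomal protein is present once in each ribosome. The genes are among the most strongly expressed in any cell, and their messages typically begin with a run of pyrimidines (the terminal oligopyrimidine tract, TOP), through which the mTOR pathway controls their translation together. In brain, cells that divide, grow or become activated hold more ribosomes than resting ones, and several ribosomal proteins, when not built into ribosomes, bind the p53 regulator Mdm2.

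The start regions of these genes are shown because the shared pyrimidine run lies there. RefSeq promoter entries (build GRCm38.p6, 250 bases before to 50 bases after the annotated start) were found for 58 of the 83 genes. Each sequence below runs 5′ to 3′ on the gene's strand from 30 bases before the start, followed by the start base and the bases after it, 60 in all. Capitals mark a pyrimidine tract, taken as an unbroken run of at least 5 C or T that begins with C within 5 bases of the start. Rps15, Rpl41, Rps21 and Rpl19 are the most abundant genes with an entry, Rps27l, Rps3a1 and Rpl4 lay far from the median of the members, Rpl27a has the longest tract, and both Rpl27a and Rplp0 were added after their values were seen.
Rps15 (chr10:80292401-80292460, + strand): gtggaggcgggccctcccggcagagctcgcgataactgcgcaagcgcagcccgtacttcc
Rpl41 (chr10:128549139-128549198, - strand): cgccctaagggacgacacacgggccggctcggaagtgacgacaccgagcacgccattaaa
Rps21 (chr2:180257349-180257408, + strand): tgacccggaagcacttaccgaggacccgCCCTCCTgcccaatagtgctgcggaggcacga
Rpl19 (chr11:98026680-98026739, + strand): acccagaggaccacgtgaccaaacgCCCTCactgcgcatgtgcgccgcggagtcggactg
Rpl27a (chr7:109519165-109519224, + strand): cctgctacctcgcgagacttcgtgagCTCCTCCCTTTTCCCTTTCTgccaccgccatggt
Rplp0 (chr5:115559437-115559496, + strand): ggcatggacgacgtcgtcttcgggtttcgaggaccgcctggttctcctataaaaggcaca
Rps27l (chr9:66946056-66946115, + strand): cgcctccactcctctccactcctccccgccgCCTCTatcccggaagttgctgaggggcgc
Rps3a1 (chr3:86142639-86142698, - strand): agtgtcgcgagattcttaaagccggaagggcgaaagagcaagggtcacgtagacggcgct
Rpl4 (chr9:64173357-64173416, + strand): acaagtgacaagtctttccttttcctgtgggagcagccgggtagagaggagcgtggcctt

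A tract was found in at least 1 entry of 28 of the 58 genes (48.3%), against 21.1% of the 26967 other genes in the same table. The 58 genes have 69 entries, since 9 genes have more than 1, and 4 of the 28 have a tract in some of their entries only. Where a gene has several, an entry with a tract is the one printed and measured. Tract length ran from 5 to 20 bases with a median of 8.5. Annotated starts can lie some bases away from the start used most, so an entry without capitals, as for Rps15, shows only that no such run begins in these positions. The letters CCGGAAG, the core that GABP and other ETS factors recognise, were in an entry of 39.7% of the members and 9.86% of the other genes. CTCGCGAG was in 10.3% against 1.02%, and AAGATGGC, the letters bound by YY1, in 10.3% against 3.17%. The letters TATAAA were about as frequent in both, at 13.8% of members and 15.7% of other genes. All searches covered both strands of the 300-base entry, except for the tract, which was read on the gene's strand, and a base could count for more than 1 motif.

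Depth came from the low values of the table, in which the deposited RPKM (reads per kilobase of gene model, scaled to the library's total) steps in whole reads. The totals were between 42261786 reads at day 3 and 48013846 at day 10. Ribosomal RNA loci held 26.5% to 37.5% of gene reads in the stroke libraries and 41.2% in sham. RPKM divides by all reads, so such a difference moves every other gene. Across the 12783 genes that reached 1 RPKM in some library, the median log2 fold was 0.28 at 4 h, -0.02 at day 1, 0.12 at day 3 and 0.07 at day 10, and the members' folds are read beside these medians. Folds are log2((stroke RPKM + 1) / (sham RPKM + 1)), which makes differences of low genes look smaller.

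Together the 83 genes made up 2.59% of gene reads in sham, 2.68% at 4 h, 4.55% at day 1, 4.63% at day 3 and 3.25% at day 10. With ribosomal RNA loci and the mitochondrial genome set aside, their share was 4.72% in sham, 3.94% at 4 h, 7.64% at day 1, 6.91% at day 3 and 5.44% at day 10. On either reckoning the day 1 and day 3 libraries were highest. The 4-hour library lay above sham on the first and below it on the second. In pooled tissue, more ribosomal protein RNA per cell and more cells that are rich in it cannot be told apart.

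Of the 83 genes, 81 passed the filter of 1 RPKM. The exceptions were Rpl39l, a paralog of Rpl39 known from testis, and Rpl3l, a paralog of Rpl3 known from heart and skeletal muscle. Rpl39l ranged from 0.157 to 0.940 RPKM and Rpl3l from 0.0127 to 0.257 RPKM over the 5 libraries. Over the 81 genes the median level was 147.9 RPKM in sham, 177 at 4 h, 259 at day 1, 249.9 at day 3 and 189 at day 10. Among the 75 of them that are protein coding, levels in sham spanned 6.16 RPKM (Rpl7l1) to 2847 RPKM (Rplp1). The 5 highest held 32.9% of the summed RPKM of these 75 genes in sham and 29.5% to 31.3% in the stroke libraries. RPKM here divides by the joined length of all annotated exons, and copies elsewhere in the genome can take reads; their part in this spread was not tested.

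**Figure D1:**
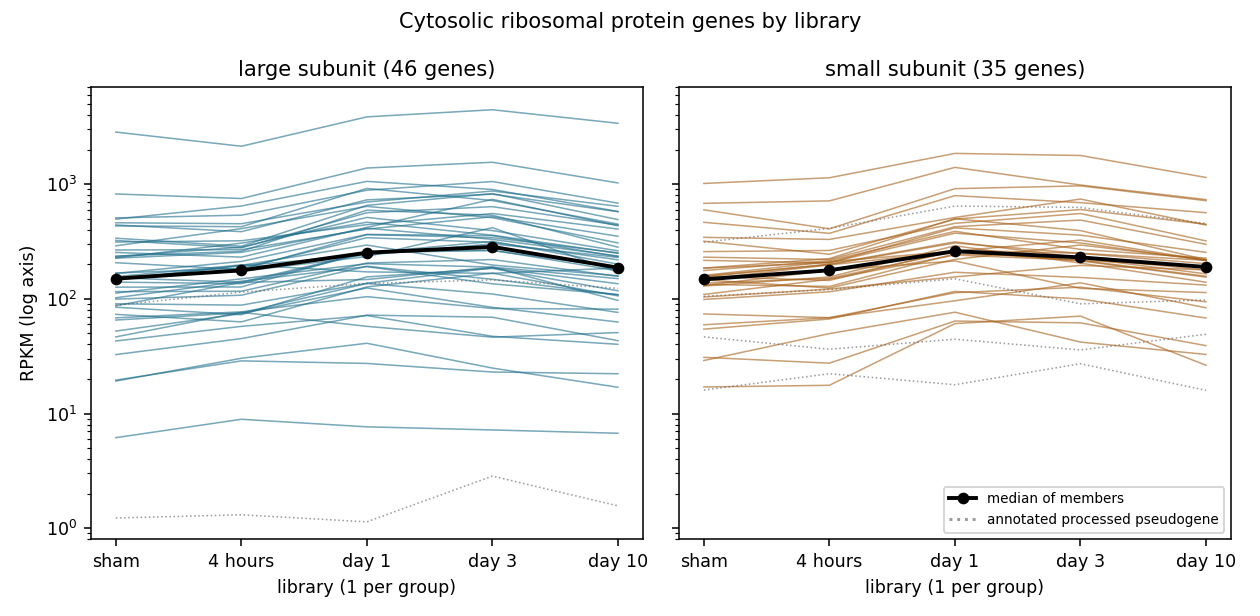
Level of each of the 81 analysed genes in the 5 libraries (RPKM, log axis), with large-subunit genes on the left and small-subunit genes on the right. Each line is 1 gene, dotted lines are annotated processed pseudogenes, and black points are the median, which over both subunits was 259 RPKM at day 1 and 147.9 RPKM in sham.

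At 4 h after stroke the ribosomal protein genes were spread around sham, with none at 2-fold or more in either direction. The share of all genes past that limit was 2.2% above and 1.09% below. A lower limit of 0.58 on the log2 scale was reached by 4 members, against 18.8% of all genes. The members' median log2 fold was 0.16, below the 0.28 of all genes, and after median-of-ratios scaling, which sets the typical gene to the same level in each library, it was -0.24. The direction of the members against sham at this time therefore depends on the scaling, while they lay below the typical gene with either. For 80 genes a 95% interval of the stroke to sham ratio was computed. In each library their reads were whole or numbered at least 5000, where wholeness was not required. It lay above 1 for 48, below 1 for 22 and held 1 for 10. These are exact conditional binomial intervals on the reads divided by 2, in case both mates of a pair were counted. They cover counting error only. All counts of such intervals, here and for later times and steps, use the deposited scaling, and no share of all genes stands beside them. From the ratio to either limit, the median distance at 4 h was 0.05 on the log2 scale. The log2 factor of median-of-ratios scaling at 4 h was 0.41, so the counts on each side of 1 depend on the scaling.

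Genes at the edges of the 4-hour distribution ranged from low to abundant among the members. Rps24, a small-subunit protein needed for processing of the ribosomal RNA precursor, had 49.8 RPKM at 4 h and 29.0 RPKM in sham (log2 fold 0.76). Rpl4, a large-subunit protein that lines the exit tunnel, had 76.2 RPKM at 4 h and 46.6 RPKM in sham (0.70). Above sham by a similar amount were Rpl14 (0.67) and Rpl22l1 (0.63). On the other side, Rps14, a platform protein of the small subunit, had 408 RPKM at 4 h and 598 RPKM in sham (-0.55). Rplp1 was at -0.41, Rps16, which lies near the decoding site, at -0.38 and the pseudogene Rps3a3 at -0.35. With median-of-ratios scaling the values of all these genes are lower by 0.41 on the log2 scale, so the first group stays above sham and the second moves further below.

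One day after stroke nearly all of the genes were higher than in sham. The median log2 fold was 0.82, with quartiles of 0.63 and 1.03, while the median of all genes was -0.02. At least 2-fold higher were 26 of 81 genes, against 3.33% of all genes, and no member was 2-fold lower, against 1.35% of all genes. The counting interval lay above 1 for 77 of the 80 genes and below 1 for none. Large-subunit genes had a median of 0.81 (14 of 46 at 2-fold or more) and small-subunit genes a median of 0.87 (12 of 35). The count at 2-fold depends on where the limit falls in a narrow distribution: 69 of the 81 genes were at least 0.58 higher on the log2 scale, against 11.2% of all genes, and with folds set against other genes of like exon length 7 were at 2-fold, against 2% of all genes. The median then was 0.61.

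The genes farthest above sham at day 1 were Rps27l, Rps26, Rps24 and Rpl35. Rps26, a small-subunit protein that contacts messenger RNA at the exit channel, had 499.8 RPKM at day 1 and 185 RPKM in sham (log2 fold 1.43, ratio 2.70, interval 2.62 to 2.78). Rps24 had 76.5 RPKM at day 1 and 29.0 RPKM in sham (1.37). Rpl35, which sits beside the exit of the peptide tunnel, had 593 RPKM at day 1 and 236 RPKM in sham (1.33). Its exons overlap those of Wdr38 and Arpc5l on the opposite strand, and Arpc5l was at 7.96 RPKM at day 1 and 6.11 RPKM in sham. At the low end were Rpl3, which helps to form the peptidyl transferase centre, at 172 RPKM at day 1 and 156 RPKM in sham (0.14), and Rpl7l1, with 7.65 RPKM at day 1 and 6.16 RPKM in sham (0.27). The pseudogenes Rps3a3 (-0.07), Rpl32l (-0.06) and Rps4l (0.15) were also at the low end.

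**Figure D2:**
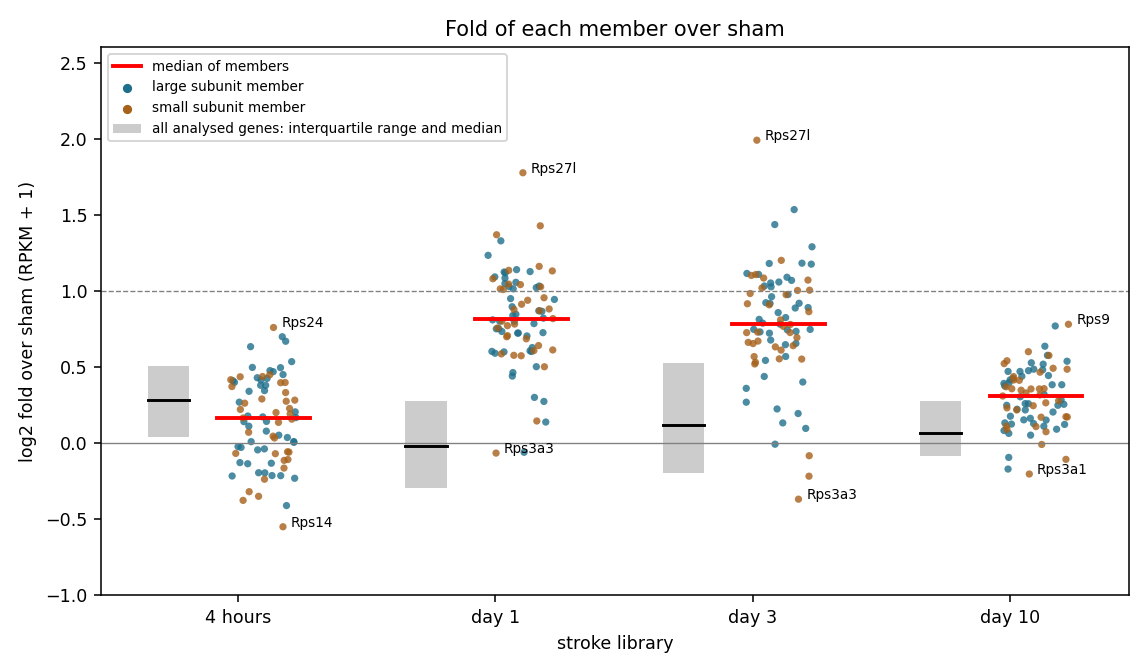
Log2 fold of each analysed gene over sham (RPKM + 1) in the 4 stroke libraries, with large-subunit genes in blue and small-subunit genes in brown. Red lines are the members' medians (0.16, 0.82, 0.78 and 0.31), grey boxes the interquartile range of all 12783 analysed genes with their median in black, and the dashed line marks 2-fold; at day 1 and day 3 most members lie above the grey box.

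In deposited RPKM the level over sham at day 3 was much the same as at day 1 for the group and different for single genes. Set against the median of all genes, the members lay 0.84 higher at day 1 and 0.66 higher at day 3 on the log2 scale. After median-of-ratios scaling these distances were 0.86 at day 1 and 0.62 at day 3. The members' median over sham was 0.78 on the log2 scale, against 0.12 for all genes. At least 2-fold higher were 23 of 81 genes, against 9.04% of all genes, and none was 2-fold lower, against 0.618% of all genes. The interval lay above 1 for 76 genes and below 1 for 3, which were Rps3a1 and its pseudogenes Rps3a2 and Rps3a3. The count at 2-fold was 8 with median-of-ratios scaling (against 7.1% of all genes), 8 with trimmed-mean-of-M-values scaling (7.01%) and 5 against genes of like exon length (5.75%), so under these settings it was near the share of all genes. At the limit of 0.58 were 62 members, against 22.4% of all genes. The median stayed between 0.48 and 0.78 under these settings.

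Farthest above sham at day 3 were Rps27l, Rplp0, Rpl28 and Rpl32. Rplp0, the base of the acidic stalk, had 737 RPKM at day 3 and 254 RPKM in sham (log2 fold 1.53, ratio 2.90, interval 2.84 to 2.97). Rpl28, a large-subunit protein, had 418 RPKM at day 3 and 154 RPKM in sham (1.44). The exons of Rpl28 overlap those of Ube2s, a cell-cycle ubiquitin enzyme on the opposite strand, which was at 22.2 RPKM at day 3 and 10.6 RPKM in sham. The part of Ube2s reads in the Rpl28 value was not tested. Rpl32, another large-subunit protein, had 828 RPKM at day 3 and 338 RPKM in sham (1.29). At the low end, Rpl4 had 46.3 RPKM at day 3 and 46.6 RPKM in sham (-0.01), Rpl3 was at 0.10, and Rps3a1, a small-subunit protein that binds initiation factors, had 123 RPKM at day 3 and 131 RPKM in sham (-0.08).

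By day 10 after stroke the genes remained slightly above sham as a group. Their median log2 fold was 0.31, against 0.07 for all genes, and was 0.17 after median-of-ratios scaling. No gene was at 2-fold in either direction, against 4.2% of all genes higher and 0.172% lower, and 4 were at 0.58 or more, against 10.6% of all genes. In the deposited scaling the interval lay above 1 for 72 of 80 genes and below 1 for 4, namely Rpl22l1, Rpl7, Rps3a1 and Rps3a2. The log2 factor of median-of-ratios scaling at day 10 was 0.14, against a median distance of 0.05 from ratio to limit. These counts therefore depend on the scaling, and no share of all genes stands beside them. Farthest above were Rps9, a small-subunit protein that guards decoding accuracy, with 179 RPKM at day 10 and 104 RPKM in sham (0.78), then Rplp0 (0.77), Rpl7a (0.64) and Rps27l (0.60). Farthest below was Rps3a1, with 113 RPKM at day 10 and 131 RPKM in sham (-0.20).

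Successive stroke libraries were compared directly, without sham. In the day 1 library, set against 4 h, 15 of the 81 genes reached 2-fold higher, against 2.7% of all genes, and none was 2-fold lower, against 5.7% of all genes. The median log2 fold of day 1 over 4 h was 0.72, while that of all genes was -0.31. The interval lay above 1 for 75 of 80 genes. Rps27l was highest in this step (1.73) and Rpl4 lowest (-0.40).

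Between day 1 and day 3 the genes parted company. The median log2 fold of day 3 over day 1 was -0.08, with 34 genes whose interval lay above 1 and 45 whose interval lay below 1, and 1 that held 1. No gene reached 2-fold, against 7.46% of all genes higher and 0.939% lower. Higher at day 3 were Rpl28, with 418 RPKM at day 3 and 234 RPKM at day 1 (0.83), Rplp0, with 737 RPKM at day 3 and 419.7 RPKM at day 1 (0.81), and Rps2, a small-subunit protein at the entry of the messenger channel, with 742 RPKM at day 3 and 512 RPKM at day 1 (0.53). Lower at day 3 were Rps24, with 42.0 RPKM at day 3 and 76.5 RPKM at day 1 (-0.85), Rps3a1, with 123 RPKM at day 3 and 214 RPKM at day 1 (-0.79), Rpl22l1 (-0.70) and Rpl7 (-0.59). Rps2 was picked after its value was seen. Over the 81 genes the highest library in deposited RPKM was day 1 for 42 and day 3 for 34. It was 4 h for 4 (Rpl3, Rpl4, Rpl5 and Rpl7l1) and day 10 for 1 (Rps3a3). With median-of-ratios scaling the median of this step was -0.27. The interval counts of this step and the counts of highest libraries use the deposited scaling and depend on it. No share of all genes stands beside either.

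Where a gene went between day 1 and day 3 was loosely related to the base composition of its transcript. Across the 75 protein coding members the log2 fold of day 3 over day 1 had a Pearson correlation of 0.34 with the GC content of the longest coding transcript. Across 10014 other protein coding genes the correlation was 0.24. All points come from the same pair of libraries, so these are descriptions across genes and not across samples. Members with 45% to 50% GC had a median of 1.01 over sham at day 1 and 0.66 at day 3, while those with 50% to 55% GC had 0.79 at day 1 and 0.91 at day 3. In the outer classes members went both ways from day 1 to day 3. Under 45% GC the step ran from -0.70 (Rpl22l1) to 0.34 (Rpl15). At 55% GC or more it ran from -0.58 (Rpl26) to 0.53 (Rps2). After the median of other genes of like GC was subtracted, the correlation within the members was 0.07 and the standard deviation of the step across members went to 0.34, against 0.36 before. Whether the base composition reflects the libraries or the cells was not tested.

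**Figure D3:**
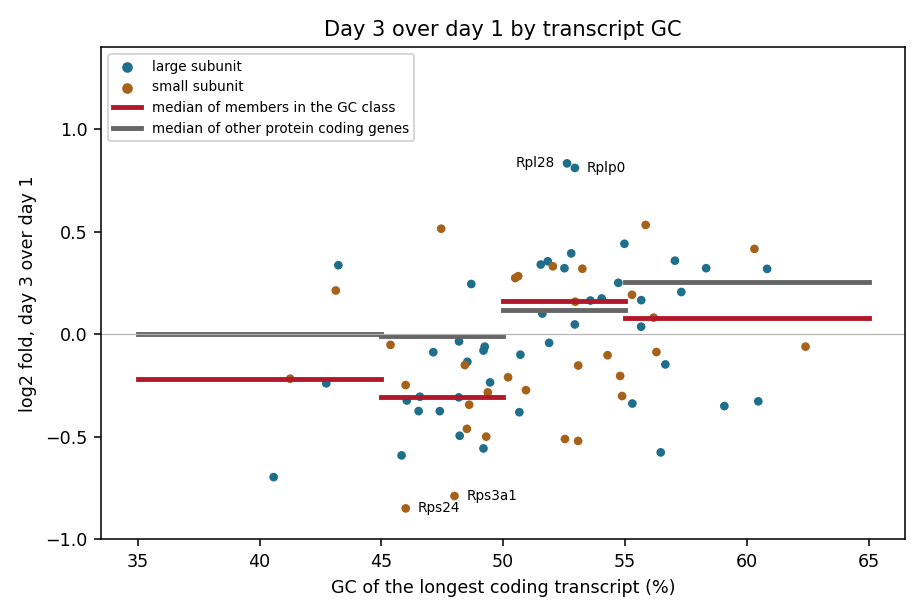
Log2 fold of day 3 over day 1 for each protein coding member against the GC content of its longest coding transcript (%), with large-subunit genes in blue and small-subunit genes in brown. Horizontal bars are medians within GC classes split at 45%, 50% and 55%, red for members and grey for other protein coding genes; members under 50% GC lie mostly below 0, and Rpl28 and Rplp0 lie highest at about 53% GC.

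From day 3 to day 10 most genes were lower. The median log2 fold of day 10 over day 3 was -0.48, against -0.01 for all genes, and the interval lay below 1 for 73 of 80 genes and above 1 for 4. At least 2-fold lower were 2 genes, Rps27l (-1.39) and Rpl28 (-1.28), against 2.77% of all genes, and none was 2-fold higher, against 0.626%. Rps27l had 26.4 RPKM at day 10 and 70.7 RPKM at day 3. Rpl28 had 171 RPKM at day 10 and 418 RPKM at day 3.

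The acidic stalk recruits the elongation factors to the large subunit and is built of Rplp0 with pairs of Rplp1 and Rplp2. Its 3 proteins end in a nearly identical tail that touches those factors, and the coding sequence of this tail is shown because it is shared while the genes' values are not. The lines give the last 45 coding bases, stop codon included, from GENCODE release 21, with the 32 bases common to all 3 genes in capitals.
Rplp0: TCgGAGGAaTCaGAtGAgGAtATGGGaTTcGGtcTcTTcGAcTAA
Rplp1: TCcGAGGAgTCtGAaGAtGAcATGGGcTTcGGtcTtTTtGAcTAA
Rplp2: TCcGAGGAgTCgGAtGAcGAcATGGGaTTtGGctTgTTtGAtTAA
Rplp0 (chr5:115559467-115563727) had 254 RPKM in sham, 231 at 4 h, 419.7 at day 1, 737 at day 3 and 434 at day 10. Rplp1 (chr9:61913284-61914542) had 2847 RPKM in sham, 2142 at 4 h, 3863 at day 1, 4457 at day 3 and 3397 at day 10. Rplp2 (chr7:141447370-141451585) had 90.5 RPKM in sham, 88.2 at 4 h, 137 at day 1, 186 at day 3 and 136 at day 10. In deposited RPKM all 3 were highest at day 3 and lowest at 4 h. With median-of-ratios scaling (log2 factors of -0.05 at day 1 and 0.16 at day 3) Rplp1 was about level at these 2 times. The interval of Rplp2 at 4 h over sham held 1 (0.933 to 1.02). The log2 folds of the 3 genes over sham at day 3 differed, at 1.53 for Rplp0, 0.65 for Rplp1 and 1.03 for Rplp2. The counting intervals of these day 3 ratios (2.84 to 2.97, 1.54 to 1.59 and 1.98 to 2.14) do not touch.

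Paralogs of ribosomal proteins behaved unlike their parent genes in part. Rps27l, whose gene is a known target of p53, encodes a close relative of the small-subunit protein Rps27. The coding sequences are 76.1% identical over 255 bases and share no identical run longer than 11 bases. The first 90 coding bases are printed with the 24 that differ in capitals.
Rps27l: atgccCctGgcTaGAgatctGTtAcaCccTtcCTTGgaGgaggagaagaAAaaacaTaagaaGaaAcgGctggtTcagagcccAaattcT
Rps27: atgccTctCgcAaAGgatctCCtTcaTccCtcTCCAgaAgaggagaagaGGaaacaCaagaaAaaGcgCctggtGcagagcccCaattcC
Rps27l (chr9:66946086-66949516) had 17.0 RPKM in sham, 17.6 at 4 h, 60.8 at day 1, 70.7 at day 3 and 26.4 at day 10. It lay close to sham at 4 h and far above it at day 1 and day 3. The ratio was 3.57 at day 1 (interval 3.15 to 4.06) and 4.15 at day 3 (3.66 to 4.72), the highest of the 81 genes at both times. Rps27 had 465 RPKM in sham, 373 at 4 h, 795 at day 1, 690.2 at day 3 and 564 at day 10, with a ratio of 1.71 at day 1 (1.67 to 1.75) and 1.48 at day 3 (1.45 to 1.52). Rps27rt, a near copy of Rps27 outside the rule, was at 2188 RPKM at day 1 and 1261 RPKM in sham, and how reads were divided between these copies is not stated in the labels.

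Rpl22l1 and Rpl22 are another such pair, of which Rpl22 is known in mouse to hold down Rpl22l1. Rpl22l1 (chr3:28805436-28807424) had 19.2 RPKM in sham, 30.3 at 4 h, 41.0 at day 1, 24.9 at day 3 and 16.9 at day 10. Rpl22 had 32.7 RPKM in sham, 45.01 at 4 h, 72.1 at day 1, 69.1 at day 3 and 43.2 at day 10. Both were about 2-fold above sham at day 1, with log2 folds of 1.06 for Rpl22l1 and 1.12 for Rpl22. At day 3 they stood apart, at 0.36 for Rpl22l1 and 1.06 for Rpl22. The transcript of Rpl22l1 has the lowest GC content of the protein coding members (40.6%), and its exons overlap Gm33051 on the opposite strand.

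Rpl7l1, a distant relative of Rpl7 with 51.7% identical coding sequence and a role in nucleolar assembly, had 6.16 RPKM in sham, 8.91 at 4 h, 7.65 at day 1, 7.19 at day 3 and 6.73 at day 10. Rpl7 had 42.9 RPKM in sham, 57.5 at 4 h, 71.5 at day 1, 47.1 at day 3 and 40.1 at day 10. In deposited RPKM Rpl7l1 was thus highest at 4 h and Rpl7 at day 1. With median-of-ratios or trimmed-mean-of-M-values scaling, Rpl7l1 was higher at day 1 than at 4 h, and it has no counting interval. Rps4l, annotated as a pseudogene of Rps4x, had between 15.9 and 27.2 RPKM, highest at day 3. Rps4x, the X-linked small-subunit gene, had 155 RPKM in sham, 201 at 4 h, 314 at day 1, 228 at day 3 and 165 at day 10.

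**Figure D4:**
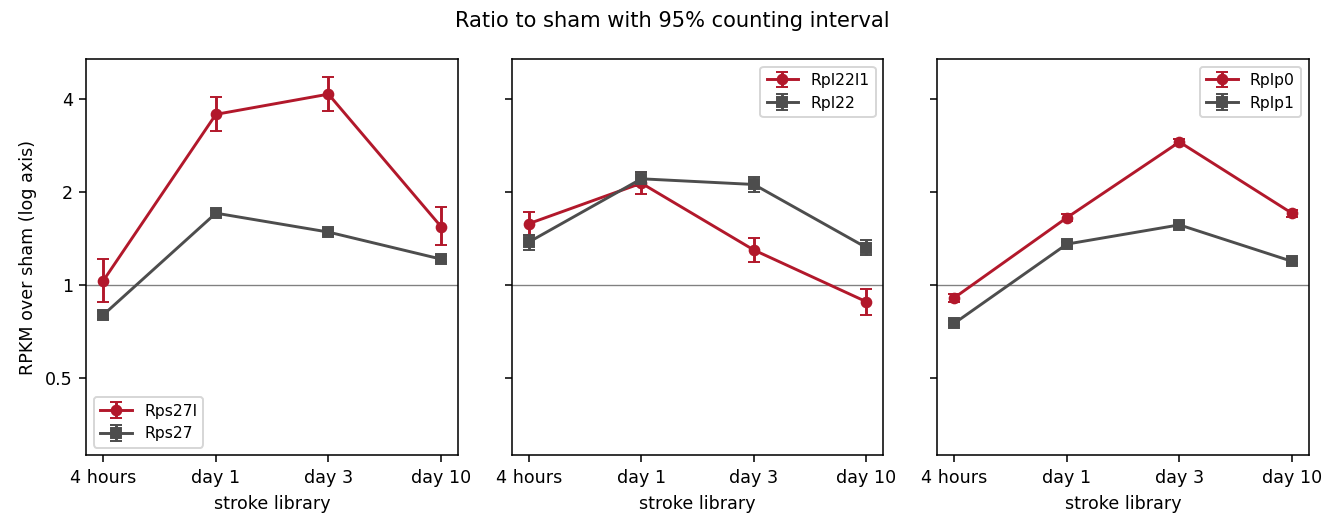
Ratio of RPKM in each stroke library to sham (log axis) for 3 pairs, Rps27l and Rps27, Rpl22l1 and Rpl22, and Rplp0 and Rplp1. Bars are 95% counting intervals, which cover counting error only; Rps27l reaches 4.15 at day 3 while Rps27 is at 1.48, and Rplp0 reaches 2.90 while Rplp1 is at 1.57.

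The abundant small-subunit genes Rps15, Rps21 and Rps14 were above sham at day 1 and day 3, and at 4 h Rps14 was the member farthest below it. Rps15, which sits at the subunit interface, had 1015 RPKM in sham, 1138 at 4 h, 1855 at day 1, 1779 at day 3 and 1144 at day 10. Rps21 had 680.5 RPKM in sham, 715 at 4 h, 1401 at day 1, 983 at day 3 and 734 at day 10. Rps14 had 598 RPKM in sham, 408 at 4 h, 914 at day 1, 967 at day 3 and 718 at day 10. Rps21 had its high point at day 1 (log2 fold 1.04 at day 1 and 0.53 at day 3).

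Among other small-subunit genes, Rpsa, also known as the laminin receptor, had 258 RPKM in sham, 264 at 4 h, 456 at day 1, 555 at day 3 and 320.1 at day 10. Rps27a, which is made as a fusion with ubiquitin, had 129 RPKM in sham, 155 at 4 h, 290.2 at day 1, 205 at day 3 and 139.7 at day 10. Rpsa was highest at day 3 and Rps27a at day 1. Rps16 had 318 RPKM in sham, 245 at 4 h, 496 at day 1, 601 at day 3 and 448 at day 10. Rps9 had 104 RPKM in sham, 122 at 4 h, 155 at day 1, 196 at day 3 and 179 at day 10, and was the member farthest above sham at day 10.

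Rps3a1 (chr3:86137940-86142702), whose start region above holds the letters CCGGAAG and no tract, had 131 RPKM in sham, 177 at 4 h, 214 at day 1, 123 at day 3 and 113 at day 10. It was above sham at 4 h and day 1 and below it at day 3 and day 10. Its annotated pseudogene Rps3a2 had 105 RPKM in sham, 120.5 at 4 h, 149.6 at day 1, 90.5 at day 3 and 97.7 at day 10, and Rps3a3 had 46.6 RPKM in sham, 36.4 at 4 h, 44.5 at day 1, 35.9 at day 3 and 49.1 at day 10. Reads of these copies may be shared, so the 3 rows are not independent.

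In the large subunit, Rpl41, the shortest ribosomal protein, had 822 RPKM in sham, 749.7 at 4 h, 1383 at day 1, 1553 at day 3 and 1025 at day 10. Rpl23a, which forms the docking site for the signal recognition particle, had 496 RPKM in sham, 645 at 4 h, 1058 at day 1, 899 at day 3 and 579 at day 10. Rpl10, which is added late to the subunit and completes its active site, had 167 RPKM in sham, 212 at 4 h, 365 at day 1, 356 at day 3 and 233 at day 10. Rpl10 was at 2-fold or more at day 1 and day 3 (1.12 and 1.09).

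Rpl7a and Rpl14 were highest at day 3. Rpl7a had 148 RPKM in sham, 195 at 4 h, 241 at day 1, 302 at day 3 and 230.0 at day 10. Rpl14 had 87.2 RPKM in sham, 139 at 4 h, 147 at day 1, 189 at day 3 and 96.9 at day 10. Rpl39, a very short protein of the exit tunnel, had 84.5 RPKM in sham, 72.8 at 4 h, 155 at day 1, 184 at day 3 and 118 at day 10. It was below sham at 4 h and 2-fold above it at day 3 (1.11).

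In deposited RPKM, Rpl3 and Rpl4 were among the 4 members that were highest at 4 h, with Rpl5 and Rpl7l1. With median-of-ratios scaling (log2 factors of 0.41 at 4 h and -0.05 at day 1) these 4 were higher at day 1 than at 4 h. Rpl3 (chr15:80077791-80091868) had 156 RPKM in sham, 198 at 4 h, 172 at day 1, 167 at day 3 and 186 at day 10. Rpl4 (chr9:64173375-64178666) had 46.6 RPKM in sham, 76.2 at 4 h, 57.6 at day 1, 46.3 at day 3 and 50.8 at day 10. Both were within 0.30 of sham on the log2 scale at day 1 and later. Their intervals at day 3 were 1.04 to 1.10 for Rpl3 and 0.935 to 1.06 for Rpl4, against a ratio of 1.89 for Rpl41 (1.86 to 1.92). Rpl3 hosts 2 small nucleolar RNA genes within its bounds and Rpl4 hosts 5.

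Ribosomal protein genes are known as hosts of small nucleolar RNAs, which guide modification of ribosomal RNA. By the annotation, 28 of the 75 protein coding members that passed the filter hold at least 1 such gene (37.3%), against 2.57% of 10033 other protein coding genes. Host genes had a median log2 fold over sham of 0.79 at day 1 and 0.90 at day 3, against 0.88 at day 1 and 0.75 at day 3 for the 47 protein coding members that host none. Members are short, with a median joined exon length of 1840 bases against 3930 for other protein coding genes, and abundant, with a median of their mean level of 209 RPKM against 3.68 RPKM. Their median GC content was 51.6%, against 52.4%. The 28 genes with a pyrimidine tract at the start had a median of 0.83 at day 1 and 0.95 at day 3, and the 28 analysed genes with an entry but no tract 0.81 at day 1 and 0.75 at day 3.

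Length matters for reading these values. Other protein coding genes under 1 kb had a median log2 fold over sham of 0.34 at day 1 and 0.47 at day 3, those of 1 to 2 kb 0.28 and 0.42, and those over 2 kb -0.07 and 0.03. The members' medians of 0.82 and 0.78 lie above each of these classes. The part of length in the members' values was not tested beyond the subtraction of like-length genes, after which the medians were 0.61 at day 1 and 0.48 at day 3. For 20 of the 81 analysed genes exons overlap those of a gene on the opposite strand, and since strand use in the counting is not stated in the labels, reads of both cannot be told apart. These 20 had medians of 0.85 at day 1 and 0.96 at day 3, and the 61 analysed genes without such an overlap 0.80 and 0.75.

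The cytosolic ribosomal genes that the table lists under other names gave similar values. Rps6, the small-subunit protein that S6 kinase phosphorylates, had 196 RPKM in sham, 255 at 4 h, 377 at day 1, 297 at day 3 and 223 at day 10 (log2 fold 0.94 at day 1). Rpl27, Rpl34, Rpl37 and Rpl23 had log2 folds over sham at day 1 of 1.04, 0.94, 1.01 and 0.86. Rack1 and Fau were below 2-fold over sham at day 1 (0.56 and 0.64) and above it at day 3. Rack1, a signalling scaffold on the small subunit, had 167 RPKM at day 3 and 68.0 RPKM in sham (1.28). Fau, which encodes a ubiquitin-like fusion of the small-subunit protein eS30, had 1278 RPKM at day 3 and 537 RPKM in sham (1.25). Of 140 analysed rows of ribosomal protein pseudogenes, 8 reached 2-fold above sham at day 1 (5.71%, against 3.33% of all genes). At day 3, 37 did (26.4%, against 9.04%), and the medians were 0.41 at day 1 and 0.69 at day 3. These rows were taken by name, and the row of Rpl34, which the annotation lists as protein coding, is among them. Rows of pseudogenes can hold reads of the members themselves.

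Other lists of the translation apparatus had medians closer to sham at day 1 and day 3. Mitochondrial ribosomal protein genes, which serve translation inside mitochondria, had a median log2 fold over sham of 0.39 at 4 h, 0.43 at day 1, 0.51 at day 3 and 0.08 at day 10. At day 1, 3 of 81 were at 2-fold or more (3.7%), near the 3.33% of all genes. These were Mrps6 (1.90), Chchd1 (1.14) and Mrpl32 (1.03). At the low end of that list at day 1 were Mrpl19 (-0.10) and Mrpl4 (-0.08). Mrps6 had 17.4 RPKM in sham, 18.5 at 4 h, 67.7 at day 1, 85.1 at day 3 and 15.1 at day 10; its log2 folds over sham (1.90 at day 1 and 2.22 at day 3) were above those of Rps27l, the highest cytosolic member at both times (1.78 and 1.99).

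Ribosome biogenesis genes, which make and assemble ribosomal RNA and proteins in the nucleolus, had a median of 0.36 at day 1 and 0.24 at day 3 over 45 analysed genes. At day 1, 4.44% of them were at 2-fold or more, against 3.33% of all genes. Higher by 2-fold or more at day 1 were Npm3, a nucleolar histone chaperone, with 11.0 RPKM at day 1 and 3.13 RPKM in sham (1.54), and Nop10, a small subunit of the pseudouridine-forming complex, with 99.5 RPKM at day 1 and 38.8 RPKM in sham (1.34). Lowest at day 1 were Tsr1 (-0.54) and Gnl3l (-0.53). Translation initiation factors had medians of 0.26 at day 1 and 0.21 at day 3 over 35 genes. None was at 2-fold at any time, against 3.33% of all genes higher at day 1 and 9.04% at day 3. Their range at day 1 ran from Eif4b at -0.53 and Eif4g3 at -0.40 to Eif1b at 0.74 and Eif4a1 at 0.80.

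Elongation factors and other TOP messages outside the ribosome had medians of 0.26 at day 1 and 0.47 at day 3 over 15 genes. Eif3e, Eif3f, Eif3h and Eif4b are in this list and in that of the initiation factors, so the lists are not separate. Only Btf3, a subunit of the complex that shields new peptides, was at 2-fold at day 1 (6.67% of the list, against 3.33% of all genes). It had 112 RPKM at day 1 and 48.4 RPKM in sham (1.19). Eef1a1, elongation factor 1 alpha, was at 552 RPKM at day 1 and 481 RPKM in sham (0.20). Eef1a2, its form in neurons and muscle, was at 276 RPKM at day 1 and 369 RPKM in sham (-0.42). Genes that control TOP messages and ribosome number had a median of -0.15 at day 1 over 26 genes. At day 1, 1 of them was at 2-fold higher (3.85%, against 3.33% of all genes). This was Eif4ebp1, a repressor of cap-dependent initiation, with 6.10 RPKM at day 1, 19.1 RPKM at day 3 and 2.22 RPKM in sham (1.14 at day 1). Ddit4, an inhibitor of mTOR, was at 82.7 RPKM at 4 h and 34.9 RPKM in sham (1.22). At day 1 Ddit4 was the lowest of this list over sham (-0.55), and Mtor had 1.97 RPKM at day 1 and 3.20 RPKM in sham (-0.50).

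Both other sets of large complexes that were compared with the ribosome had medians nearer to sham at day 1. Proteasome genes had a median of 0.32 with none of 36 at 2-fold. Nuclear genes of oxidative phosphorylation had a median of 0.48 with 6 of 79 at 2-fold (7.59%). The share of all genes at 2-fold higher was 3.33%. Cox7c, a subunit of cytochrome oxidase, had 323 RPKM at day 1 and 140.2 RPKM in sham (1.20). Ndufc2, a subunit of complex I, had 294 RPKM at day 1 and 130.4 RPKM in sham (1.17).

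**Figure D5:**
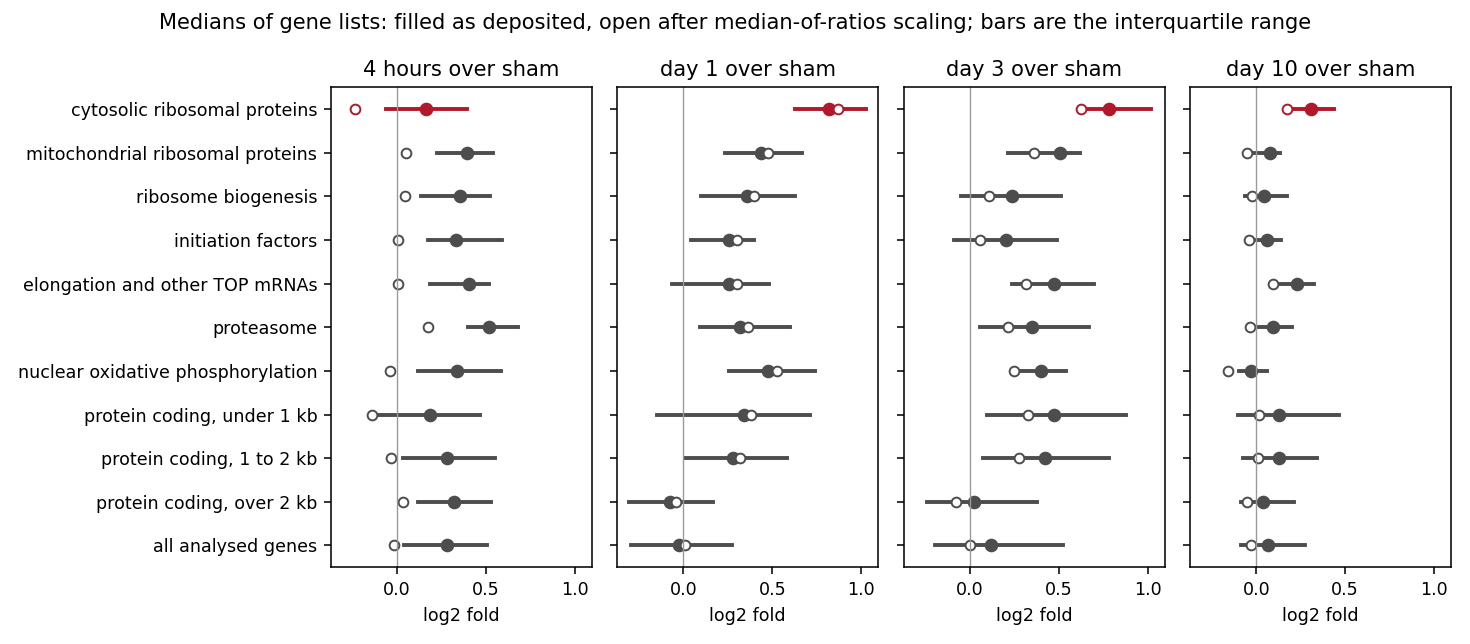
Median log2 fold over sham of the cytosolic ribosomal protein genes (red) and of other gene lists and length classes (dark) in the 4 stroke libraries. Filled points use RPKM as deposited, with bars for the interquartile range of each list, and open points the same after median-of-ratios scaling; the ribosomal protein genes have the highest median shown at day 1 (0.82) and day 3 (0.78), and at 4 h their open point (-0.24) is the lowest of the lists drawn, which leave out the pseudogene rows and the ribosomal genes outside the naming rule.

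Markers of cell types also differed between the libraries, and not all in the order of the members' medians. The median log2 fold over sham of 7 microglia markers was 0.18 at 4 h, -0.58 at day 1, 1.46 at day 3 and 1.65 at day 10. All 10 markers of medium spiny neurons, the main cell of this tissue, were found in every library, and their summed level was 2024 RPKM in sham, 2569 at 4 h, 1031 at day 1, 1523 at day 3 and 1717 at day 10. For 7 activated phagocyte markers the summed level was 305 RPKM in sham, 271 at 4 h, 299 at day 1, 2998 at day 3 and 2954 at day 10. Most of the phagocyte sum is Ctsd and C1qa. The median log2 fold of the 7 phagocyte markers over sham was 0.89 at day 1. Of these, 3 were at 2-fold or more, against 3.33% of all genes, with Lgals3 highest (3.11). Neutrophil markers, of which 4 of 7 were in the table, summed to 11.2 RPKM in sham, 6.51 at 4 h, 153 at day 1, 8.60 at day 3 and 9.81 at day 10, with Cxcr2 at 0 at 4 h. Markers of dividing cells summed to 0.983 RPKM in sham, 1.14 at 4 h, 0.896 at day 1, 29.1 at day 3 and 2.39 at day 10. Astrocyte markers summed to 163 RPKM in sham, 83.2 at 4 h, 312 at day 1, 559.5 at day 3 and 302 at day 10, a sum carried by Gfap. Their median log2 fold over sham was -0.44 at day 1, with 2 of 6 above 0, and 0.14 at day 3, with 3 of 6 above 0. What each cell type adds to the ribosomal protein values was not tested. Choroid plexus markers, chiefly Ttr, summed to 79.1 RPKM in sham, 738 at 4 h, 305 at day 1, 20.1 at day 3 and 0.771 at day 10. Its part was likewise not tested.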

How the data were processed

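Total RNA of pooled punches was sequenced as 5 libraries, 1 per group. Trizol extraction and a Vazyme total RNA kit are stated per the labels' protocols. Build GRCm38, HISAT2 2.1.0, StringTie 1.3.4d and Trimmomatic 0.36 come from the submitters' processing notes. Neither the annotation nor the use of strand is stated there. The authors deposited 1 table with an RPKM value per gene and library. Per the file headers, the deposited table also gives a log2 ratio, a GFOLD value (a log2 fold shrunk for low counts, setting 0.01) and a false discovery rate for each pair of libraries, and 1 p-value with its adjusted value over all libraries, whose test is not stated. The authors' GFOLD value served as an alternative, and their deposited p-values and false discovery rates were not used.

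Identifiers were matched to GENCODE mouse release 21 (19179 of 19221 genes, 99.8%). Library totals were recovered from RPKM times joined exon length, which gave whole reads within 0.02 for 90.4% to 90.5% of values below 5000 reads, and were 44924677 in sham, 45952912 at 4 h, 46323701 at day 1, 42261786 at day 3 and 48013846 at day 10. A gene was analysed if it reached 1 RPKM in some library, with a pseudocount of 1 and a size limit of 2-fold. The members, lists and size limit were chosen with earlier results of these data known. Genes named in the text were the 4 highest and 4 lowest at each time, those 1 or more from the members' median on the log2 scale, the 5 most abundant, the stalk genes, Rpsa, Rps6, Rps27a, paralogs with their parents and genes below the filter. Of other lists they were the 2 highest and 2 lowest at day 1 and members at 2-fold. Alternatives were other scalings, pseudocounts, filters and size limits, the GFOLD value and sets without paralogs; the adjustments for GC and exon length and the set without pseudogenes were chosen after seeing the data. Read recovery and intervals were tested on simulated data. Python 3.11.15 with numpy 2.4.6, pandas 2.3.3 and scipy 1.17.1 was used.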

Additional observations from a re-analysis of the deposited data

Results flagged for a closer look

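Each gene below lay on opposite sides of sham at a pair of times, on the log2(RPKM + 1) scale. Each value is 1 library over 1 library, and the difference between times was not tested. Below sham at 4 h and above it at day 3 were Rplp0 (-0.14 at 4 h and 1.53 at day 3), Rpl32, listed as Rpl32l (-0.23 and 1.29), Rpl39 (-0.21 and 1.11), Rpl41 (-0.13 and 0.92), Rps16 (-0.38 and 0.92), Rps14 (-0.55 and 0.69) and Rplp1 (-0.41 and 0.65). Rps27 was at -0.32 at 4 h and 0.77 at day 1.

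The opposite order was seen in genes above sham at day 1 and below it later. Rpl22l1 was at 1.06 at day 1 and -0.17 at day 10, Rpl7 at 0.72 at day 1 and -0.094 at day 10, and Rps3a1 at 0.71 at day 1 and -0.20 at day 10. Rps3a2, a pseudogene that may share reads with Rps3a1, was at 0.50 at day 1 and -0.22 at day 3.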

How the results depend on the processing

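No paired analysis was possible because each group is 1 library, and for the same reason no replicate could be left out. The median over sham stayed positive at day 1, day 3 and day 10 under every setting tried. Of 148 folds of single named genes, 116 moved by more than their counting error with median-of-ratios scaling, 106 with trimmed means and 127 with the loci left out, 73 with the GC adjustment and 8 with the GFOLD value. The 4 h median was -0.24 with median-of-ratios scaling, -0.22 with trimmed means, -0.17 with predicted, mitochondrial, small RNA and ribosomal RNA loci left out, -0.21 adjusted for GC and -0.14 adjusted for exon length. Under median-of-ratios scaling the medians were 0.87 at day 1, 0.63 at day 3 and 0.17 at day 10, with 8 genes at 2-fold at day 3 (7.1% of all genes), and 1.17 for day 1 over 4 h and -0.27 for day 3 over day 1. Trimmed means gave 0.62 at day 3, with 8 genes at 2-fold (7.01% of all genes), 0.21 at day 10, 1.14 for day 1 over 4 h, -0.26 for day 3 over day 1 and -0.42 for day 10 over day 3. With the loci left out the values were 0.73 at day 1 with 13 genes at 2-fold (2.63% of all genes), 0.52 at day 3 with 4 of 81, a smaller share than the 5.95% of all genes, 0.17 at day 10, and 0.96, -0.24 and -0.36 for the 3 successive steps. The GC adjustment gave 0.70 at day 3 with 11 genes (7.11% of all genes), and 1.13, -0.16 and -0.52 for the steps. The length adjustment gave 0.61 at day 1 with 7 genes (2% of all genes), 0.48 at day 3 with 5 (5.75%), 0.21 at day 10, and 0.83, -0.21 and -0.29 for the steps. Both adjustments were chosen after seeing the data. A limit of 0.58 on the log2 scale was passed by 4 genes at 4 h (18.8% of all genes), 69 at day 1 (11.2%), 62 at day 3 (22.4%) and 4 at day 10 (10.6%). Day 3 over day 1 was -0.039 with the authors' deposited GFOLD value, and day 1 over 4 h was 0.78 without annotated pseudogenes. Beyond what each setting does by construction, the cause was not tested. Counting intervals do not cover the spread between animals, which these pooled libraries cannot show.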
